A study of Mus musculus with 13 samples.

Results

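The serpin family was followed in mouse liver as the 31 protein-coding genes whose symbol starts with Serpin and whose read counts summed to at least 130 over the 13 libraries. The table of 54532 genes lists 61 protein-coding serpin genes, so 30 lay under that minimum, 15 of them with no read at all. They were chosen by that summed count over all libraries. The rule uses no difference between groups, but it was set with earlier results of these data known. Just inside the minimum stood Serpina3i with 378 counts and Serpina3c with 394, and just outside it stood Serpina5 with 128 and Serpini1 with 73. A gene read mainly in 1 group can pass such a minimum through that group, as Serpina3i did. GalN/LPS libraries held 273 of its 378 counts, against 87 in pretreated, 12 in dmPGE2 and 6 in saline libraries. Without the GalN/LPS libraries it would not have reached 130, so its higher level in GalN/LPS livers is tied to the rule. Every one of the 31 genes also passed the filter on low counts that left 14280 genes for testing, and they are described, not taken as a sample of serpins.

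The livers came from wild-type C57 BL6 mice aged 8 weeks and were taken at 6 h. The 4 pretreated libraries are from mice that received dmPGE2 (a dimethyl analog of prostaglandin E2) at 300 µg/kg 1 h ahead of D-galactosamine (GalN) at 500 mg/kg with lipopolysaccharide (LPS) at 5 µg/kg, both into the peritoneum. The 3 GalN/LPS libraries are from mice given GalN with LPS and no dmPGE2, the 3 dmPGE2 libraries from mice given dmPGE2 alone, for which the interval to collection is not recorded, and the 3 saline libraries from controls. Galactosamine blocks RNA synthesis in hepatocytes and sensitises them to the cytokines that LPS releases, a standard model of acute liver failure. The labels do not say that each library is a separate animal, so p-values measure the spread between these libraries, which may be technical. Totals ranged from 16910816 to 17649675 counts in pretreated, 16575171 to 17709049 in GalN/LPS, 14829838 to 20777809 in dmPGE2 and 17018104 to 18425824 in saline libraries. Hepatocyte markers were abundant in every library, with a summed level of at least 68182 CPM (counts scaled to the library size, here and throughout after TMM scaling).

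Serpins are protease inhibitors that act as bait. The target protease cuts an exposed reactive loop near the carboxyl end of the serpin, the loop folds into the body of the inhibitor and the protease stays trapped in a covalent complex. Some members inhibit nothing and carry hormones or chaperone collagen. The liver makes most serpins of the plasma, and several are acute-phase proteins, made in larger amounts during inflammation. Mice carry expanded sets of the alpha-1-antitrypsin genes (Serpina1) and of the antichymotrypsin-like genes (Serpina3), both within one stretch of chromosome 12.

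The reactive loops of the 5 alpha-1-antitrypsin paralogs are shown because the loop is the part that meets the protease. The lines give the 60 coding bases just upstream of the conserved serpin signature, from the GENCODE M21 transcripts. Capitals mark the 13 positions at which the 5 genes are not all alike. Any 2 of the genes differed at 4 to 8 of the 60 bases.
Serpina1a: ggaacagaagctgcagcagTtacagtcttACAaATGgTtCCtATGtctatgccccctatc
Serpina1b: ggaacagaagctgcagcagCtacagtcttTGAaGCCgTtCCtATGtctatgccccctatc
Serpina1c: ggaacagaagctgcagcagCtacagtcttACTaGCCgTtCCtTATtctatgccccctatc
Serpina1d: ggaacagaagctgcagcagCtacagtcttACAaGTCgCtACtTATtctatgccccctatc
Serpina1e: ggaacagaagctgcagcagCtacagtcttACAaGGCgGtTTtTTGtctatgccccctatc
Over the longest reading frame of each gene, with gaps counted as differences, pairs with Serpina1a were 91.4% to 93.3% identical. Its frame had 436 codons against 413 in each of the others, so that extra length counts as difference there. Pairs without Serpina1a were 96.3% to 96.7% identical. This likeness limits the counts: 74.2% of the 50-base words of Serpina1c, 57.6% of those of Serpina1a, 50.9% of Serpina1d, 34.6% of Serpina1e and 29.5% of Serpina1b also occur in another gene, so reads may be split between the copies. The span given for Serpina1b also holds that of Serpina1d. Each of the 5 values is therefore uncertain as a value of that copy.

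The promoters of the Serpina3 genes are shown because these neighbours went opposite ways in the livers. Each line gives 250 bases before the RefSeq start (GRCm38.p6), on the strand of the gene, and capitals mark a match to the STAT-type GAS element, TTCNNNGAA. They are Serpina3f at chr12:104214294-104214543, Serpina3g at chr12:104235897-104236146, Serpina3i at chr12:104262872-104263121 and Serpina3n at chr12:104406458-104406707, each on the plus strand.
Serpina3f: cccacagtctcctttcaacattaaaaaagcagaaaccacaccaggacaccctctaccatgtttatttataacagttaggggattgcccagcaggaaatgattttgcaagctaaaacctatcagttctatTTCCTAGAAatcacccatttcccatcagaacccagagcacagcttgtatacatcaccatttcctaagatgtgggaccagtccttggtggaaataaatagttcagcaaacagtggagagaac
Serpina3g: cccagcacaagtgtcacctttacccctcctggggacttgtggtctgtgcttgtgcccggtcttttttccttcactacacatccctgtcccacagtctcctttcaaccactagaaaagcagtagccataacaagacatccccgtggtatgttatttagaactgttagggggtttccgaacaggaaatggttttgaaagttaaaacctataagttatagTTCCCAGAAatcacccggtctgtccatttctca
Serpina3i: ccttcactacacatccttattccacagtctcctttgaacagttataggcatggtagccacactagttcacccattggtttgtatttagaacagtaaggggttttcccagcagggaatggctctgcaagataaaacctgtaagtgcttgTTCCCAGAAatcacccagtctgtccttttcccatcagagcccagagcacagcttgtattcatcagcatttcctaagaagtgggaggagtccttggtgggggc
Serpina3n: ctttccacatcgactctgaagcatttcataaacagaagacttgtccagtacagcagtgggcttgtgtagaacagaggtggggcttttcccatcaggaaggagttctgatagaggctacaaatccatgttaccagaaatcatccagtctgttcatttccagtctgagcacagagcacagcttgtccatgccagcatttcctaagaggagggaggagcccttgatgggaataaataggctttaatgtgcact
The element reads TTCCCAGAA in Serpina3g and in Serpina3i, where it begins 33 and 102 bases before the start, and TTCCTAGAA in Serpina3f, 121 bases before its first start. Counted from 1 at the first T of the Serpina3g element, Serpina3f differs by C5T. At the aligned place Serpina3n and Serpina3c read TTACCAGAA, which is C3A, and hold no match. The promoters of Serpina3c and Serpina3n were 92.7% identical over the aligned bases. No RefSeq promoter was found for Serpina3k or Serpina3m. Serpina3c, with no match, rose in GalN/LPS against saline livers by 3.66 (log2), as did Serpina3f, Serpina3g and Serpina3i, which hold one. Serpina11 also holds a match and gave -0.44 in that comparison. Any role of the element in these changes was not tested.

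RefSeq promoters were found for 23 of the 31 genes, and 5 motifs were searched in them on both strands, each counted on its own. TTCNNNGAA was found in Serpina3f, Serpina3g, Serpina3i, Serpina11 and Serpinb6a, 5 of 23, and in 7.02% of 32851 promoters of the same length. For each motif the serpins are counted as genes, which held 27 promoters, and the percentage counts promoters, so the units differ. The promoters of Serpina3f and Serpina3i were 82.9% and 80.4% identical to that of Serpina3g over the aligned bases, so these matches are not separate cases. The interferon-type element (TTTC, any pair of bases, TTTC) was found in Serpinb6a and Serpinb9, against 2.98% of all promoters. The AP-1 element TGANTCA was found in Serpina1a, Serpina1b, Serpina1c, Serpina1d and Serpinb8, against 6.75%. The NF-kB form (GGGA, any base, TT, any base, CC, in 0.98% of all promoters) and the CRE form TGACGTCA (1.55%) were in none of the 23, which says only that these bases are not in these windows.

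Serpin transcripts made up 6.25 ± 0.277% of all counts in pretreated livers (SD, n = 4), 5.53 ± 0.522% in GalN/LPS livers, 5.67 ± 0.732% in dmPGE2 livers and 5.19 ± 0.415% in saline livers (SD, n = 3 each). The 5 Serpina1 genes held 3.22% of all counts in pretreated, 3.03% in GalN/LPS, 2.65% in dmPGE2 and 2.87% in saline livers. Serpina3k alone held 2.08%, 1.83%, 2.08% and 1.63% in the same order of groups. Per length, as FPKM (fragments scaled to gene length and library size, as the authors deposited them), Serpina1e led in saline livers at 8492 ± 1444 FPKM, ahead of Serpina3k at 6847 ± 392 (SD, n = 3), a gap smaller than the SD of Serpina1e. Serpina1b at 2048 ± 179.7, Serpina1d at 1506 ± 189, Serpina1a at 1461 ± 58.6 and Serpina1c at 990.2 ± 163 FPKM came next, and the middle pair lay within their spread. Serping1, Serpina3n, Serpinf2 and Serpinf1 stood at 360.0, 354, 344 and 218 FPKM. Serpina3g reached 142 FPKM in GalN/LPS livers, against 2.21 FPKM in saline livers.

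In GalN/LPS livers 11 of the 31 genes rose and 4 fell against saline livers, while 16 did not pass the test, which was the quasi-likelihood F test of edgeR at an adjusted p of 0.05. Of all 14280 genes tested, 27.4% rose and 25.6% fell. The median log2 fold change was 0.37 over the serpins and 0.02 over all genes. Among the risers were Serpina3c, Serpina3f, Serpina3g, Serpina3i, Serpinh1, Serpinb1a, Serpinb6a, Serpinb6b, Serpinb9 and Serpina1d, and the genes that fell were Serpina6, Serpina10, Serpina11 and Serpinb8. Without GalN/LPS replicate 1, or without saline replicate 3, 2 genes fell.

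In pretreated livers 16 of the 31 rose and 6 fell against GalN/LPS livers. Of all genes 24.4% rose and 30.1% fell. The median was 0.56 over the serpins and -0.10 over all genes. Among those that fell were Serpina3f, Serpina3g, Serpina3i, Serpinh1 and Serpinb6a, each of which had risen in GalN/LPS against saline livers. Both comparisons share the GalN/LPS libraries, so their values are given side by side and not correlated. Without GalN/LPS replicate 1 the risers numbered 9, and without GalN/LPS replicate 3 they numbered 10.

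**Figure D1:**
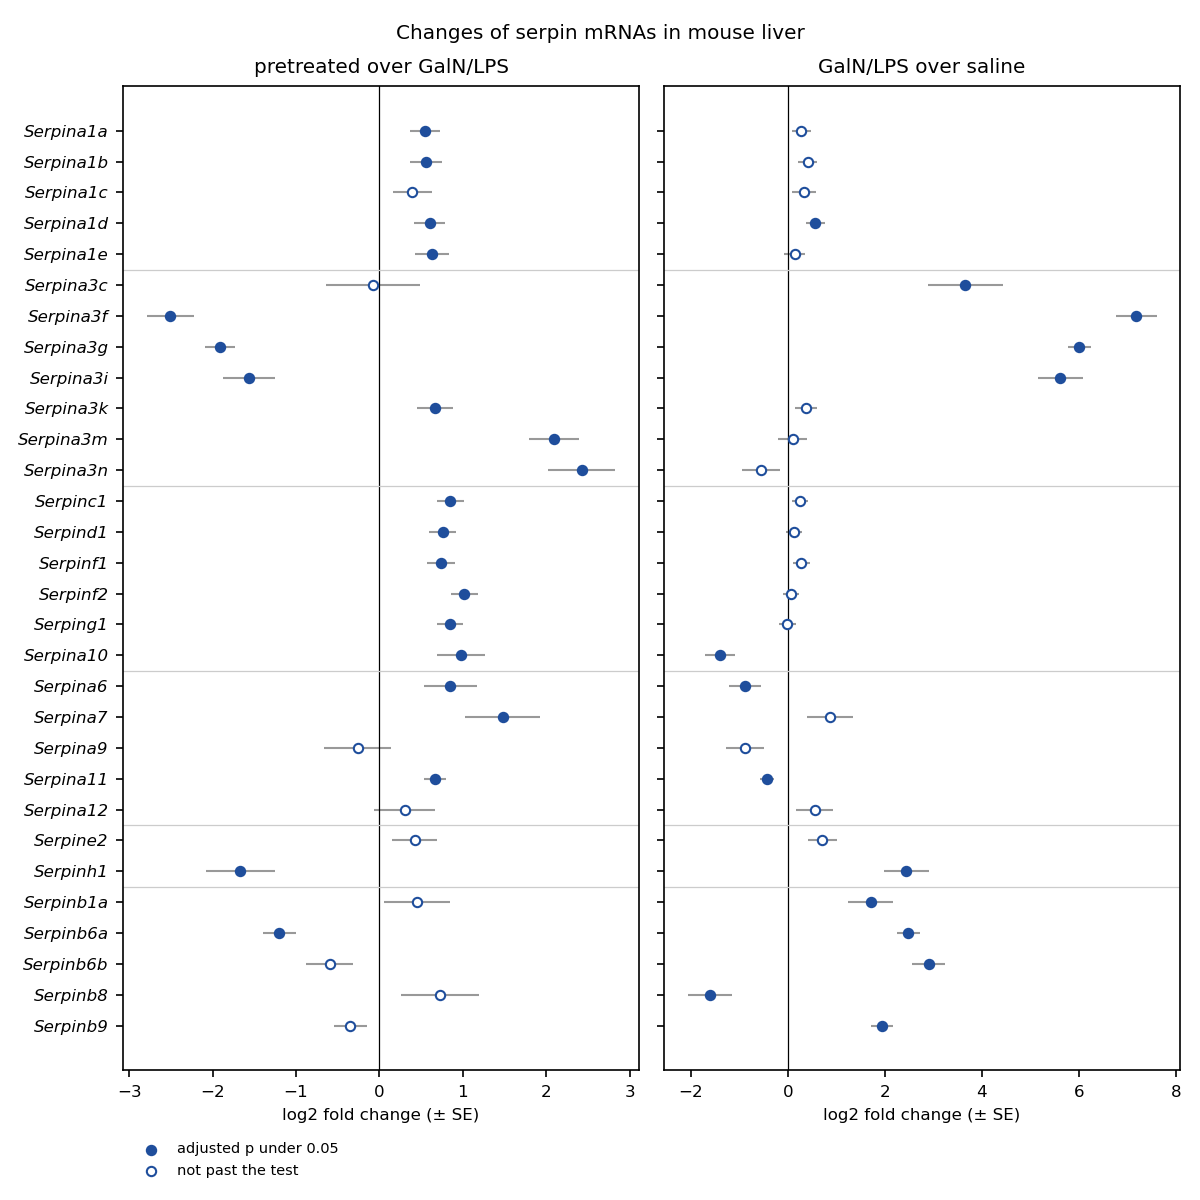
Log2 fold change (horizontal axis, ± SE) of 30 of the 31 serpin genes in pretreated over GalN/LPS livers (left) and GalN/LPS over saline livers (right), with grey lines between the classes described in the text. Filled points passed the test, and Serpina3f at -2.51 and Serpina3n at 2.42 on the left belong to the same gene cluster.

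The choice of scaling bears on the abundant genes. TMM factors ran from 0.683 to 0.830 in pretreated, 0.904 to 1.14 in GalN/LPS, 1.16 to 1.28 in dmPGE2 and 1.17 to 1.18 in saline libraries. With plain library totals the median of all genes in pretreated over GalN/LPS livers moved to -0.61, and genes called higher were 8.30% of those called, against 44.7% with TMM. Of all 14280 genes tested 616 were then higher and 6804 lower. Of the 31 serpins 6 were higher and 8 lower, with a median of 0.06, so the serpin median and the median of all genes shifted down together.

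The Serpina3 cluster, named for the gene of human antichymotrypsin, gave the widest range of responses. Of its 7 genes 4 rose in GalN/LPS livers and none fell, with Serpina3i, a member only through its GalN/LPS counts, among the 4. In pretreated against GalN/LPS livers 3 rose (Serpina3k, Serpina3m and Serpina3n) and 3 fell (Serpina3f, Serpina3g and Serpina3i). Of all genes 27.4% rose and 25.6% fell in GalN/LPS against saline livers, and 24.4% rose and 30.1% fell in pretreated against GalN/LPS livers. All 7 were higher in pretreated than in saline livers, where 34.8% of all genes were called higher. These directions held in the 3 falling genes and in Serpina3m and Serpina3n with library totals as well.

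Serpina3g (chromosome 12, 104236245 to 104241939), known in mice as an inhibitor of lysosomal cathepsins inside leukocytes, was read at 62.2, 104, 80.5 and 68.2 CPM in pretreated livers and 345, 249 and 294 CPM in GalN/LPS livers. It was read at 4.09, 3.71 and 2.87 CPM in dmPGE2 livers and 5.60, 3.94 and 4.23 CPM in saline livers. Pretreated libraries lay wholly below GalN/LPS and wholly above saline libraries, and dmPGE2 and saline libraries overlapped. The log2 fold change was -1.91 ± 0.18 in pretreated against GalN/LPS (SE, adjusted p = 3.22e-06) and 6.01 ± 0.24 in GalN/LPS against saline livers (adjusted p = 6.85e-11), a 64.4-fold difference.

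Serpina3f (104214544 to 104221129), a close neighbour of less studied function, was read at 13.6, 39.9, 22.0 and 19.3 CPM in pretreated livers, against 163, 103 and 139 CPM in GalN/LPS livers. The dmPGE2 livers held 1.46, 1.28 and 0.844 CPM and saline livers 1.15, 1.15 and 0.480 CPM. It changed by -2.51 ± 0.29 in pretreated against GalN/LPS livers (adjusted p = 1.37e-05) and by 7.18 ± 0.42 in GalN/LPS against saline livers (adjusted p = 1.62e-09), the largest log2 change among the 31 genes. Serpina3i (104263122 to 104269372), with the fewest counts of the 31 over all libraries, followed the same order at a lower level, with 1.03, 2.05, 1.67 and 2.03 CPM in pretreated, 5.63, 4.92 and 4.56 CPM in GalN/LPS and 0.0917, 0.149 and 0.0480 CPM in saline livers. Its log2 fold change was -1.56 ± 0.31 in pretreated against GalN/LPS livers (adjusted p = 0.000814) and 5.62 ± 0.47 in GalN/LPS against saline livers (adjusted p = 8.0e-08). In the saline libraries those levels rest on 6 counts in all, and the gene entered the 31 only through its GalN/LPS counts. Its rise and fall are therefore not independent of the choice of genes.

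Serpina3n (104406729 to 104414329), an acute-phase protein of the plasma and a granzyme B inhibitor in mice, moved otherwise. Pretreated livers held 2826, 2816, 1580 and 3298 CPM, and GalN/LPS livers 388, 549.8 and 532 CPM. The dmPGE2 livers held 2010, 4184 and 1976 CPM, and saline livers 965, 273 and 923 CPM. Each pretreated and dmPGE2 library lay above each GalN/LPS and saline library, and GalN/LPS and saline libraries overlapped. The log2 fold change was 2.42 ± 0.41 in pretreated against GalN/LPS livers (adjusted p = 0.000231), a 5.37-fold difference, and -0.56 ± 0.40 in GalN/LPS against saline livers (adjusted p = 0.257).

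Serpina3m (104338486 to 104394257) went with Serpina3n. It was read at 880.0, 709, 634 and 782 CPM in pretreated livers and 153, 233 and 144 CPM in GalN/LPS livers, a log2 difference of 2.09 ± 0.30 (adjusted p = 7.46e-05). The dmPGE2 livers held 392, 712 and 424 CPM, and saline livers 221, 87.1 and 186 CPM. Its span as annotated contains that of Serpina3k, which had 4392850 counts against 90881 for Serpina3m, and 16.0% of its 50-base words occur in Serpina3k. Reads of Serpina3m may thus be split with Serpina3k, and its values are uncertain to that extent.

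Serpina3k, the plasma inhibitor of tissue kallikrein in rodents, held 31482, 25937, 27098 and 29189 CPM in pretreated livers and 13683, 24614 and 15547 CPM in GalN/LPS livers, and the highest GalN/LPS library, replicate 2, came close to the lowest pretreated library. The log2 difference was 0.66 ± 0.21 (adjusted p = 0.0159). Without GalN/LPS replicate 1 it was 0.50 (adjusted p = 0.0834), without GalN/LPS replicate 3 it was 0.56 (adjusted p = 0.0731), and with library totals it was 0.18. Serpina3c, on the opposite strand from the other 6 genes, held 1.43, 3.07, 2.34 and 3.38 CPM in pretreated livers, 3.13, 2.77 and 2.20 CPM in GalN/LPS livers and 0.275, 0.249 and 0.0961 CPM in saline livers. It rose by 3.66 ± 0.77 in GalN/LPS against saline livers (log2, adjusted p = 0.000867), and pretreated against GalN/LPS livers gave -0.08 ± 0.56 (adjusted p = 0.914). In dmPGE2 livers Serpina3c was spread from 0.380 to 4.35 CPM.

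The balance of the cluster can be read within each library, where scaling plays no part. Per 100 reads of Serpina3n there were 2.07 to 5.09 reads of Serpina3g in pretreated, 45.3 to 88.9 in GalN/LPS, 0.0888 to 0.203 in dmPGE2 and 0.458 to 1.44 in saline libraries. No group's range met another's. In the order of the chromosome, the genes that fell in pretreated against GalN/LPS livers, Serpina3f, Serpina3g and Serpina3i, lie next to each other among these 7 genes, between 60.7 and 109 kb from the start of Serpina3c. Those that rose, Serpina3k, Serpina3m and Serpina3n, lie beyond them from 185 to 253 kb.

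**Figure D2:**
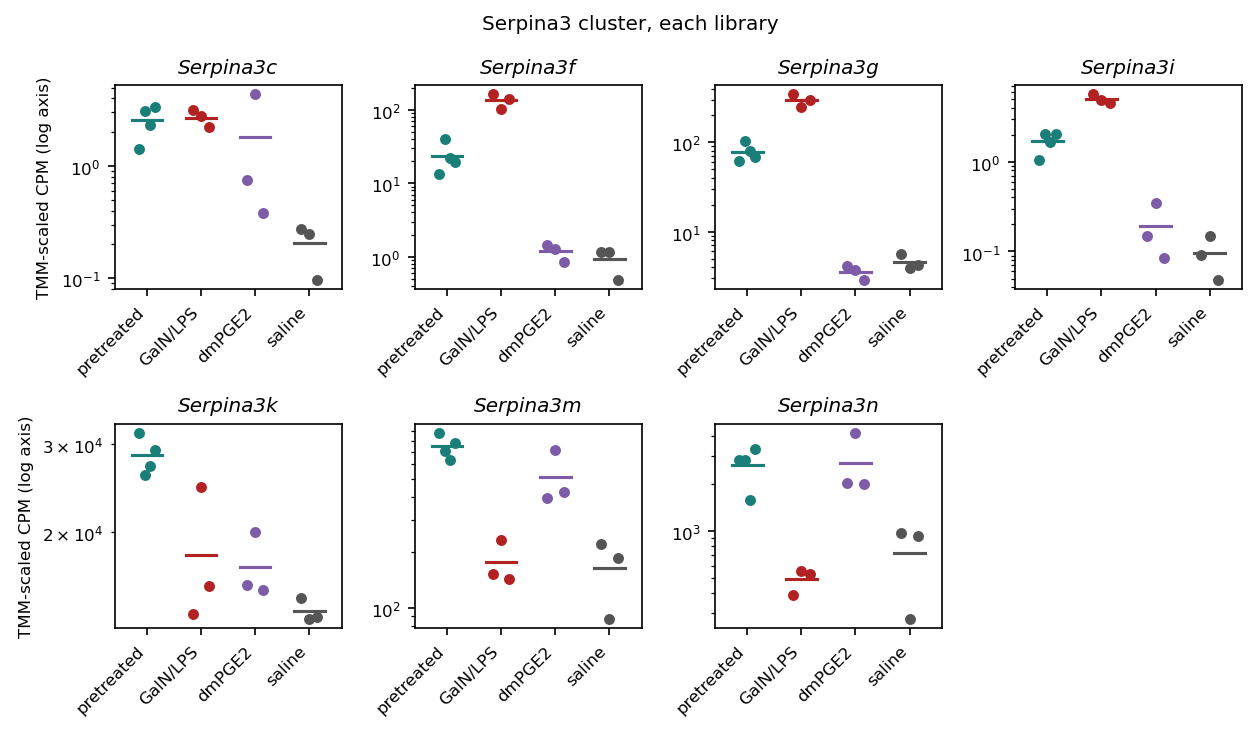
TMM-scaled CPM on log axes for the 7 Serpina3 genes, with each dot a library and each bar the mean of its group, for pretreated, GalN/LPS, dmPGE2 and saline livers. Serpina3f, Serpina3g and Serpina3i peak in GalN/LPS livers, whereas Serpina3m and Serpina3n are higher in pretreated and dmPGE2 livers than in GalN/LPS livers.

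**Figure D3:**
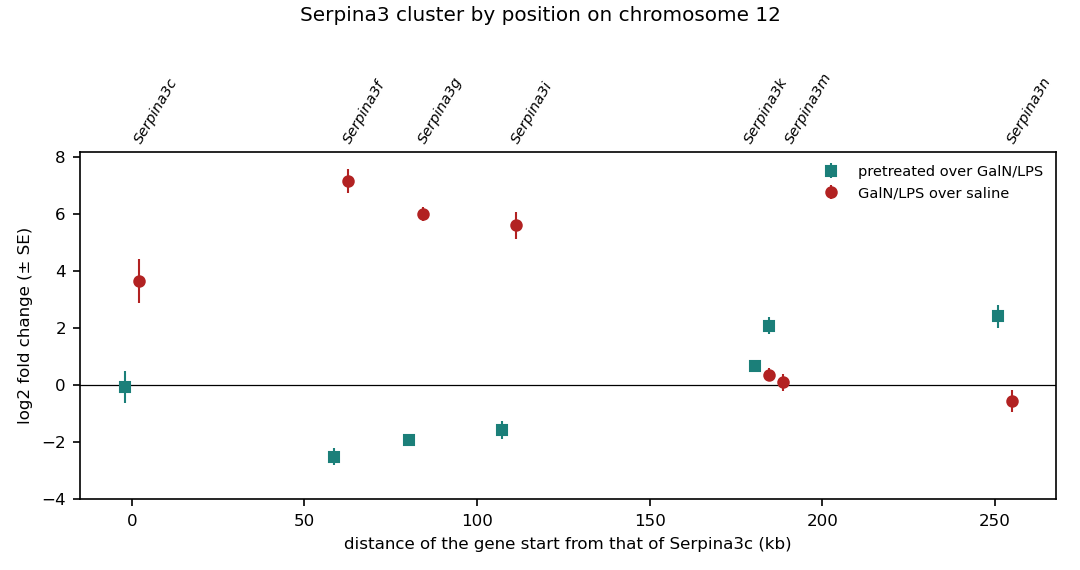
Log2 fold change (vertical axis, ± SE) of the 7 genes against the distance in kb of each gene's start from that of Serpina3c on chromosome 12, with squares for pretreated over GalN/LPS and circles for GalN/LPS over saline, nudged apart to either side of the same place, as are Serpina3k and Serpina3m, which share a start. Squares lie below 0 for the genes from 60.7 to 109 kb and above 0 for those from 185 to 253 kb.

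Markers of leukocytes moved between the groups as well. Summed neutrophil markers ranged from 243 to 399.7 CPM in pretreated, 642 to 847 CPM in GalN/LPS, 5.15 to 8.82 CPM in dmPGE2 and 4.48 to 18.5 CPM in saline livers. Summed monocyte and macrophage markers ranged from 267 to 394 CPM in pretreated, 624 to 969.8 CPM in GalN/LPS, 121 to 164 CPM in dmPGE2 and 97.9 to 125 CPM in saline livers. Of the neutrophil markers 8 of 8 tested rose in GalN/LPS livers and 6 fell in pretreated against GalN/LPS livers, and of the monocyte and macrophage markers 9 of 10 rose and 9 fell. Their part in the Serpina3f, Serpina3g and Serpina3i values was not tested. In whole liver, fewer cells of a type and less RNA per cell cannot be told apart.

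Alpha-1-antitrypsin is known as the plasma inhibitor of neutrophil elastase, and the Serpina1 genes are its mouse copies. Their loops differ as shown above, and which protease each copy inhibits was not tested. In GalN/LPS against saline livers 1 of 5 rose, Serpina1d, by 0.57 ± 0.19 (log2, adjusted p = 0.0221), and the range over the 5 was 0.14 to 0.57. In pretreated against GalN/LPS livers 4 of 5 rose, by 0.55 to 0.63, and Serpina1c gave 0.39 (adjusted p = 0.164). Of all genes 27.4% rose in GalN/LPS against saline livers and 24.4% in pretreated against GalN/LPS livers. All 5 were higher in pretreated than in saline livers, by 0.73 to 1.17, where 34.8% of all genes were called higher. With library totals that comparison gave 0.14 for Serpina1a (adjusted p = 0.339), 0.28 for Serpina1b (adjusted p = 0.0583), 0.045 for Serpina1c (adjusted p = 0.85) and 0.087 for Serpina1e (adjusted p = 0.62), and of the 5 it called Serpina1d alone, at 0.48.

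Serpina1e was read at 25186, 20368, 22352 and 24523 CPM in pretreated livers, 13392, 16929 and 14424 CPM in GalN/LPS livers, 9219, 14632 and 11022 CPM in dmPGE2 livers and 13031, 11424 and 16142 CPM in saline livers. The pretreated libraries stood clear of the other groups, which overlapped. Serpina1b was read at 9116, 8263, 9956 and 10719 CPM in pretreated livers and 5384, 8208 and 5786 CPM in GalN/LPS livers, and GalN/LPS replicate 2 nearly reached the lowest pretreated library. These calls rest on few libraries. Without GalN/LPS replicate 1 the adjusted p was 0.0953 for Serpina1a, 0.0973 for Serpina1b, 0.0676 for Serpina1d and 0.0631 for Serpina1e, and without GalN/LPS replicate 3 it was 0.0938, 0.0868, 0.0624 and 0.0525 in the same order. Without pretreated replicate 4 it was 0.0589 for Serpina1a and 0.0588 for Serpina1b. Serpina1d in GalN/LPS against saline livers had an adjusted p of 0.0604 without saline replicate 1, 0.0934 without saline replicate 2 and 0.111 without GalN/LPS replicate 2.

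With library totals the Serpina1 differences in pretreated against GalN/LPS livers came to 0.05 for Serpina1a, 0.06 for Serpina1b, -0.10 for Serpina1c, 0.11 for Serpina1d and 0.12 for Serpina1e, and none was called. Set against the median of all genes they were nearly the same under both scalings. A change of scaling moves all genes nearly alike, so the distance from that median is no test of the rise. Serpina1e lay 0.73 above that median with TMM and 0.73 with totals, Serpina1b 0.66 and 0.67, and Serpina1c 0.49 and 0.50. Hepatocyte markers moved too: 10 of 10 rose in pretreated against GalN/LPS livers, with a median of 0.75, and 1 of 10 rose in GalN/LPS against saline livers. Their summed level ranged from 140572 to 224191 CPM in pretreated, 94138 to 134258 CPM in GalN/LPS, 68182 to 74857 CPM in dmPGE2 and 89172 to 103193 CPM in saline livers, and their part in the plasma serpin values was not tested.

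**Figure D4:**
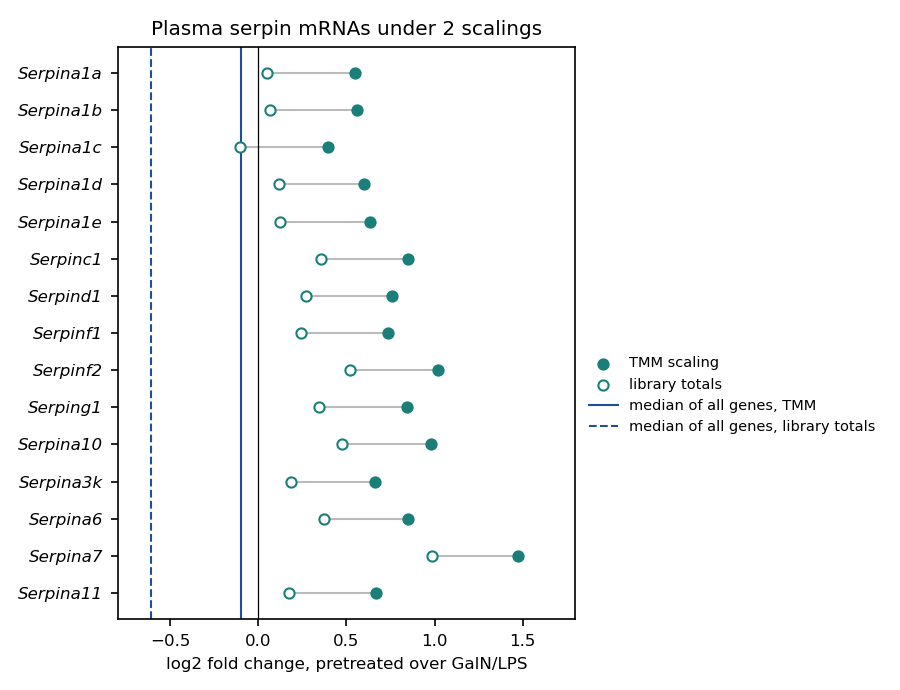
Log2 fold change of 15 plasma serpin messages in pretreated over GalN/LPS livers, with filled points for TMM scaling and open points for library totals. The solid line at -0.10 and the dashed line at -0.61 are the medians of all genes under TMM and under totals. Every gene keeps nearly the same distance from the line of its scaling. A change of scaling moves all genes nearly alike, so that distance is no test of the changes.

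The 6 serpins classed here as blood protease regulators all rose in pretreated against GalN/LPS livers, where 24.4% of all genes rose. The class does not hold every serpin of coagulation, fibrinolysis and complement. Serpina5, the protein C inhibitor, lay under the minimum and gave -1.41 (log2, adjusted p = 0.114). Serpine2, placed with the tissue serpins, gave 0.42 (adjusted p = 0.201). The genes of the class, Serpinc1, Serpind1, Serpinf1, Serpinf2, Serping1 and Serpina10, differed by 0.74 to 1.02 (log2). In GalN/LPS against saline livers 5 of the 6 did not pass the test, with values from -0.01 to 0.28, and Serpina10 fell. Serpinf1, pigment epithelium-derived factor, stands in this group although it inhibits no protease.

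Serpinc1 (chromosome 1, 160978585 to 161005863) encodes antithrombin, the heparin-dependent inhibitor of thrombin and factor Xa. It was read at 3859, 3454, 3931 and 4043 CPM in pretreated livers, against 1850, 2594 and 1913 CPM in GalN/LPS livers. The dmPGE2 livers held 1503, 1391 and 1700 CPM and saline livers 1705, 1705 and 1945 CPM. Pretreated libraries lay above every other library, with a log2 difference of 0.85 ± 0.16 from GalN/LPS livers (adjusted p = 0.000575) that was 0.35 with library totals (adjusted p = 0.0194).

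Serpinf2 (chromosome 11, 75431732 to 75439591), alpha-2-antiplasmin, the main inhibitor of plasmin, was read at 1625, 1601, 1675 and 1780 CPM in pretreated livers, against 780.2, 969 and 723 CPM in GalN/LPS livers. Saline livers held 826, 627 and 909.9 CPM. The difference was 1.02 ± 0.16 in pretreated against GalN/LPS livers (adjusted p = 0.000137) and 0.52 with library totals (adjusted p = 0.00328). In GalN/LPS against saline livers it was 0.06 ± 0.17 (adjusted p = 0.767).

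Serping1 (chromosome 2, 84765387 to 84775444), the C1 inhibitor of complement and of the kallikrein-kinin system, was read at 1591, 1262, 1461 and 1571 CPM in pretreated livers and 725, 993 and 740.1 CPM in GalN/LPS livers. Saline livers held 810.0, 767 and 896 CPM, which overlapped GalN/LPS livers. The difference from GalN/LPS livers was 0.84 ± 0.16 (adjusted p = 0.000555), and 0.34 with totals (adjusted p = 0.015). Serpind1, heparin cofactor II, differed by 0.76 ± 0.16 (adjusted p = 0.00146) and Serpinf1 by 0.74 ± 0.16 (adjusted p = 0.00171), and with totals neither was called, at 0.27 (adjusted p = 0.11) and 0.24 (adjusted p = 0.14).

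Serpina10, the protein Z-dependent inhibitor of factor Xa, departed from the other 5. It was read at 392, 209.5, 178 and 261 CPM in pretreated, 107, 155 and 135 CPM in GalN/LPS, 333, 592 and 312 CPM in dmPGE2 and 409, 228 and 407 CPM in saline livers. GalN/LPS libraries lay below all others. It fell by 1.40 ± 0.31 on the log2 scale in GalN/LPS against saline livers (adjusted p = 0.00124) and was 0.98 ± 0.29 higher in pretreated than in GalN/LPS livers (adjusted p = 0.0106). Without GalN/LPS replicate 1 this second difference was 0.85 (adjusted p = 0.0519), and with totals 0.47 (adjusted p = 0.14).

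The proteases that these serpins meet in blood were taken as a list of 15 genes. In pretreated against GalN/LPS livers 13 of 15 rose and 2 fell, with a median of 0.78, and in GalN/LPS against saline livers 3 rose and none fell. Of all genes 24.4% rose and 30.1% fell in the first comparison, and 27.4% rose and 25.6% fell in the second. These shares apply to every gene list and marker set here. F11, coagulation factor XI, was higher in pretreated livers by 1.01 ± 0.14 (adjusted p = 6.62e-05), Masp2, a lectin pathway protease, by 0.91 ± 0.13 (adjusted p = 7.47e-05) and Masp1, its partner, by 0.95 ± 0.16 (adjusted p = 0.000206). The complement proteases C1ra and C1s1, targets of the C1 inhibitor, rose by 0.78 and 0.79 in pretreated against GalN/LPS and by 0.35 and 0.39 in GalN/LPS against saline livers. Plat, tissue plasminogen activator, went the other way, with 0.467 CPM on average in pretreated, 1.56 CPM in GalN/LPS and 0.412 CPM in saline livers.

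Among 11 cofactors and receptors, 6 rose and 4 fell in pretreated against GalN/LPS livers, and 3 rose and 1 fell in GalN/LPS against saline livers. Those that rose in GalN/LPS livers were Procr, the endothelial protein C receptor, Plaur, the urokinase receptor, and Thbd, thrombomodulin. Procr averaged 11.9 CPM in pretreated, 43.2 CPM in GalN/LPS and 0.221 CPM in saline livers. Plaur averaged 7.31, 28.9 and 0.334 CPM and Thbd 13.2, 45.3 and 1.29 CPM in the same groups. F3, tissue factor, fell by 1.94 ± 0.33 in pretreated against GalN/LPS livers (log2, adjusted p = 0.000263) and gave -0.36 in GalN/LPS against saline livers (adjusted p = 0.331).

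The hormone carriers and the remaining clade A genes were mixed. Of 5 genes, 2 fell in GalN/LPS against saline livers, as did 25.6% of all genes. In pretreated against GalN/LPS livers 3 of the 5 rose, as did 24.4% of all genes. Serpina6, corticosteroid-binding globulin, was read at 119, 95.7, 176 and 208 CPM in pretreated, 68.0, 137 and 44.5 CPM in GalN/LPS, 59.4, 69.2 and 85.7 CPM in dmPGE2 and 138, 139 and 183 CPM in saline livers. It was 0.85 ± 0.32 higher in pretreated than in GalN/LPS livers (adjusted p = 0.0337), where the libraries overlapped, or 0.37 with library totals (adjusted p = 0.256), and it fell by 0.89 ± 0.34 in GalN/LPS against saline livers (adjusted p = 0.0355). GalN/LPS replicate 2 stood apart here: without it the 2 log2 differences were 1.42 and -1.46. Without GalN/LPS replicate 3 they were 0.53 (adjusted p = 0.165) and -0.70 (adjusted p = 0.0824), and without GalN/LPS replicate 1 they were 0.73 (adjusted p = 0.12) and -0.76 (adjusted p = 0.113). Leaving out pretreated replicate 3 or 4, or saline replicate 3, also ended a Serpina6 call, with adjusted p = 0.0752, adjusted p = 0.106 and adjusted p = 0.105.

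Serpina11, a secreted clade A protein of unsettled function, was read at 78.7, 67.4, 69.5 and 78.2 CPM in pretreated, 42.0, 56.9 and 39.8 CPM in GalN/LPS, 38.9, 36.9 and 42.4 CPM in dmPGE2 and 59.9, 60.9 and 66.6 CPM in saline livers. Pretreated libraries were the highest and dmPGE2 libraries among the lowest. It differed by 0.67 ± 0.13 in pretreated against GalN/LPS livers (adjusted p = 0.000752) and fell by 0.44 ± 0.14 in GalN/LPS against saline livers (adjusted p = 0.0148), the second with an adjusted p of 0.0601 without GalN/LPS replicate 1 and 0.0501 without saline replicate 3. With library totals the first difference was 0.17 (adjusted p = 0.23), and 36.9% of its 50-base words occur in the gene Gm28577.

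Serpina7, thyroxine-binding globulin, was read at 36.4, 21.3, 66.0 and 77.1 CPM in pretreated, 15.8, 31.6 and 6.91 CPM in GalN/LPS and 7.84, 8.92 and 12.8 CPM in saline livers. It was 1.48 ± 0.45 higher in pretreated than in GalN/LPS livers (adjusted p = 0.0115). That difference was 2.15 without GalN/LPS replicate 2 and 1.07 (adjusted p = 0.053) without GalN/LPS replicate 3. Serpina12, the adipokine vaspin, and Serpina9 passed neither test. Serpina12 ranged from 63.6 to 183 CPM in pretreated and 97.2 to 108 CPM in GalN/LPS livers, and Serpina9 from 1.30 to 2.96 CPM in pretreated and 0.922 to 3.59 CPM in GalN/LPS livers.

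Serpinh1 (chromosome 7, 99345376 to 99353239), the collagen chaperone HSP47, was read at 6.59, 29.4, 7.17 and 11.1 CPM in pretreated, 57.6, 25.0 and 47.6 CPM in GalN/LPS, 6.64, 5.98 and 6.45 CPM in dmPGE2 and 5.04, 8.07 and 11 CPM in saline livers. Pretreated replicate 2 lay within the GalN/LPS range and the other 3 near saline livers. It fell by 1.67 ± 0.41 in pretreated against GalN/LPS livers (log2, adjusted p = 0.00345), or by 2.39 without that library, and rose by 2.44 ± 0.46 in GalN/LPS against saline livers (adjusted p = 0.000353). Serpine2, protease nexin 1, held 18.3, 17.2, 12.8 and 15.1 CPM in pretreated, 11.6, 5.99 and 17.8 CPM in GalN/LPS and 7.11, 6.18 and 8.41 CPM in saline livers. It passed in pretreated against saline livers, at 1.13 ± 0.28 (adjusted p = 0.00226), or 0.46 with library totals (adjusted p = 0.236), and in neither comparison with GalN/LPS livers.

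Of 11 genes that fold collagen beside Serpinh1, 7 rose and 1 fell in GalN/LPS against saline livers, and 3 rose and 2 fell in pretreated against GalN/LPS livers. P4ha1, a collagen prolyl hydroxylase subunit, averaged 8.57 CPM in pretreated, 26.8 CPM in GalN/LPS and 4.99 CPM in saline livers. Plod3, a lysyl hydroxylase, rose by 1.10 ± 0.15 in GalN/LPS against saline livers (adjusted p = 1.95e-05) and gave -0.03 in pretreated against GalN/LPS livers (adjusted p = 0.853). Plod1, another lysyl hydroxylase, averaged 83.9 CPM in pretreated, 69.2 CPM in GalN/LPS and 43.8 CPM in saline livers. P4hb and Ppib, which serve many secreted proteins, were 0.78 and 0.56 higher in pretreated than in GalN/LPS livers.

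Summed sinusoidal endothelium markers ranged from 147 to 316 CPM in pretreated, 496 to 665 CPM in GalN/LPS, 78.9 to 102 CPM in dmPGE2 and 72.0 to 82.4 CPM in saline livers. All 8 rose in GalN/LPS against saline livers and all 8 fell in pretreated against GalN/LPS livers. Stellate cell and fibroblast markers ranged from 109 to 324 CPM in pretreated, 392 to 742 CPM in GalN/LPS, 98.1 to 126 CPM in dmPGE2 and 93.8 to 148 CPM in saline livers, with 8 of 9 rising and then 8 of 9 falling. The part of these cells in the Serpinh1 values was not tested.

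**Figure D5:**
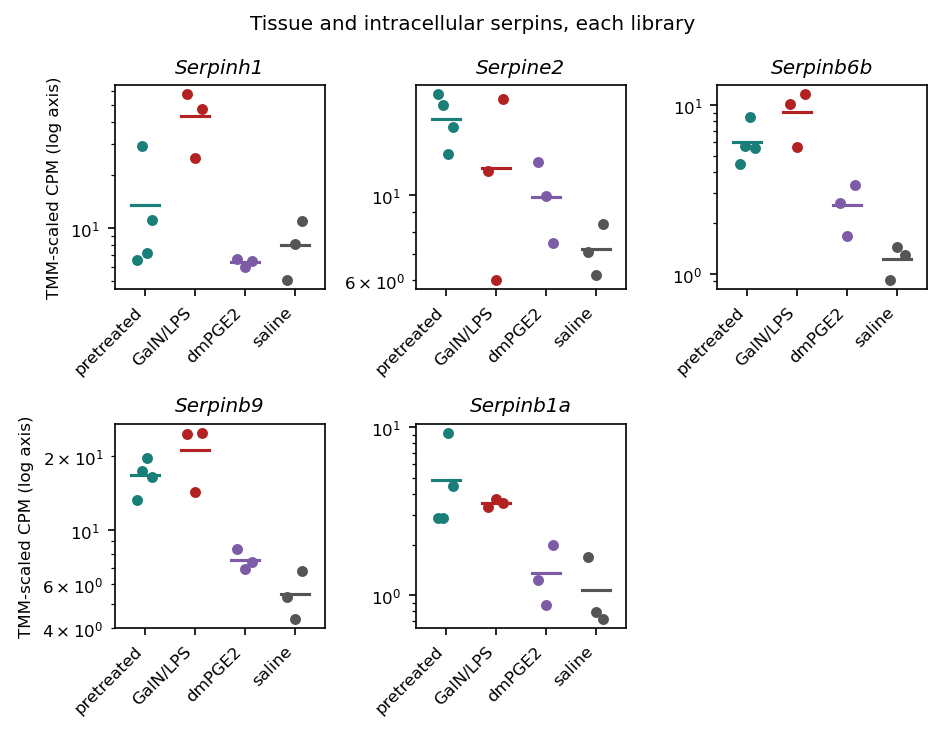
TMM-scaled CPM on log axes for 5 serpins that act in tissue or inside cells, with each dot a library and each bar the mean of its group, for pretreated, GalN/LPS, dmPGE2 and saline livers. Serpinh1 pretreated replicate 2 at 29.4 CPM stands above the rest of its group.

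Clade B serpins stay inside cells, where they guard against the cell's own proteases. Of 5 genes 4 rose in GalN/LPS against saline livers and Serpinb8 fell, and in pretreated against GalN/LPS livers Serpinb6a fell and 4 did not pass. Of all genes 27.4% rose and 25.6% fell in the first comparison, and 30.1% fell in the second. Serpinb9, the granzyme B inhibitor of cytotoxic lymphocytes and of cells exposed to them, was read at 13.3, 17.4, 19.6 and 16.4 CPM in pretreated, 24.5, 14.3 and 24.7 CPM in GalN/LPS, 8.36, 6.91 and 7.38 CPM in dmPGE2 and 5.32, 4.33 and 6.82 CPM in saline livers. It rose by 1.95 ± 0.22 in GalN/LPS against saline livers (log2, adjusted p = 2.56e-06). Pretreated and GalN/LPS libraries overlapped, at -0.35 ± 0.20 (adjusted p = 0.149), and with library totals this difference was -0.89 (adjusted p = 0.0065).

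Serpinb6b was read at 4.45, 5.74, 8.51 and 5.58 CPM in pretreated, 10.2, 5.61 and 11.6 CPM in GalN/LPS, 2.62, 1.68 and 3.37 CPM in dmPGE2 and 0.917, 1.44 and 1.30 CPM in saline livers. It rose by 2.90 ± 0.34 in GalN/LPS against saline livers (adjusted p = 3.07e-06). Pretreated against GalN/LPS livers gave -0.59 ± 0.28 (adjusted p = 0.0849), and -1.14 with totals (adjusted p = 0.0079). Serpinb1a, an inhibitor of the serine proteases of neutrophil granules, held 2.86, 2.87, 9.17 and 4.48 CPM in pretreated, 3.34, 3.72 and 3.53 CPM in GalN/LPS and 1.70, 0.797 and 0.721 CPM in saline livers, a rise of 1.71 ± 0.46 in GalN/LPS against saline livers (adjusted p = 0.00517). Serpinb8 held 0.476, 1.09, 2.42 and 1.52 CPM in pretreated, 0.584, 0.756 and 1.13 CPM in GalN/LPS and 2.48, 1.84 and 3.27 CPM in saline livers, and fell by 1.61 ± 0.46 in GalN/LPS against saline livers (adjusted p = 0.00774).

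Serpinb6a was read at 11, 16.1, 14.9 and 9.56 CPM in pretreated, 32.3, 23.0 and 33.6 CPM in GalN/LPS and 6.24, 4.09 and 5.52 CPM in saline livers. The change was -1.20 ± 0.20 in pretreated against GalN/LPS livers (adjusted p = 0.00024) and 2.49 ± 0.23 in GalN/LPS against saline livers (adjusted p = 2.35e-07). This gene overlaps Nqo2 and Ripk1 on the other strand, which had 14996 and 4085 counts against its own 3144. Whether reads were counted by strand is not stated, so its reads cannot be told from theirs. Summed T and NK cell markers, which bear on Serpinb9, ranged from 11.5 to 15.2 CPM in pretreated, 26.3 to 29.8 CPM in GalN/LPS, 3.37 to 3.95 CPM in dmPGE2 and 3.31 to 4.13 CPM in saline livers, and their part was not tested.

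Of 13 proteases of leukocytes and lysosomes 11 were tested: 7 rose and 2 fell in GalN/LPS against saline livers, and 2 rose and 7 fell in pretreated against GalN/LPS livers. Casp4, the inflammatory caspase that senses LPS, averaged 9.18 CPM in pretreated, 31.3 CPM in GalN/LPS and 0.875 CPM in saline livers. Ctss, cathepsin S, averaged 54.5, 110.0 and 20.3 CPM in the same groups. Ctsl, cathepsin L, rose by 1.34 ± 0.19 in pretreated against GalN/LPS livers (adjusted p = 6.13e-05) and gave 0.10 in GalN/LPS against saline livers (adjusted p = 0.684). Mmp8, a neutrophil collagenase that stands in the list although it is no serine or cysteine protease, averaged 12.1, 25.1 and 0.141 CPM.

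Protease inhibitors of other families were a list of 20. In GalN/LPS against saline livers 10 rose and none fell, and in pretreated against GalN/LPS livers 11 rose and 5 fell. Timp1, an inhibitor of metalloproteases, averaged 4.18 CPM in pretreated, 15.7 CPM in GalN/LPS and 0.351 CPM in saline livers. Slpi, the secretory leukocyte protease inhibitor, averaged 4.58, 11.4 and 0.593 CPM, and Tfpi, the tissue factor pathway inhibitor, 2.83, 8.83 and 1.65 CPM in the same groups. Timp2 averaged 9.52, 22.0 and 6.40 CPM. Tfpi2 was 0.85 ± 0.14 higher in pretreated than in GalN/LPS livers (adjusted p = 0.000175), and Cstb, an inhibitor of cysteine cathepsins, was 1.17 ± 0.13 higher in GalN/LPS than in saline livers (adjusted p = 1.1e-06).

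In livers given dmPGE2 alone, 0 of 31 serpins and 0 of all 14280 genes passed the test against saline livers, a background of 0% in each direction. At an unadjusted p under 0.05 there were 7 serpins and 1990 genes. DESeq2 called 3 serpins higher and 2 lower and, over all genes, 130 higher and 124 lower. The serpins it called were Serpina3n, Serpina3m and Serpina3c, higher, and Serpina6 and Serpina11, lower.

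Serpina3n and Serpina3m differed by 1.92 ± 0.41 (log2, adjusted p = 0.0795) and 1.63 ± 0.31 (adjusted p = 0.0628) in dmPGE2 against saline livers, with no overlap between the libraries of either gene. By DESeq2 their adjusted p were 0.00481 and 0.000202. Over the other alternatives to the test or scaling, the adjusted p ran from 2.74e-19 with no filter on low counts to 0.172 with the replicate block for Serpina3n, and from 1.32e-15 to 0.132 for Serpina3m. Serpina11 differed by -0.66 ± 0.14 (adjusted p = 0.0739) and Serpina6 by -1.11 ± 0.34 (adjusted p = 0.173), again without overlap. Serpina3c gave 3.03 ± 0.79 (adjusted p = 0.114), or 1.43 without dmPGE2 replicate 2. Serpina3g and Serpina3f, at -0.37 and 0.37, had libraries that overlapped those of saline livers. With 3 libraries in each group, lack of overlap says little. Serpina3k, Serpinc1, Serpina1a and Serpinf1 also had no overlap in this comparison, at edgeR adjusted p of 0.586, 0.583, 0.484 and 0.415. The same held for Serpinb9, Serpinb6a, Serpinb6b and Serpina3c, at edgeR adjusted p of 0.376, 0.346, 0.188 and 0.114. The share of all genes without overlap is not given here, so these have no background.

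The interaction asks whether dmPGE2 changed a message in injured livers (pretreated over GalN/LPS) otherwise than in uninjured livers (dmPGE2 over saline). The time between dmPGE2 and collection may have differed between these livers, which cannot be told apart from the term. It was positive in 9 of the 31 genes and negative in 7, with 15.4% and 19.6% of all genes called, and 4 were negative without dmPGE2 replicate 2. With library totals it was positive in 5 and negative in 9, and positive terms were 3.38% of those called over all genes, against 44.0% with TMM. With totals 182 of 14280 genes were called positive and 5209 negative. The positive genes were Serpina1a, Serpina1e, Serpinc1, Serpind1, Serpinf1, Serpinf2, Serping1, Serpina6 and Serpina11. The negative genes were Serpina3c, Serpina3f, Serpina3g, Serpina3i, Serpinb6a, Serpinb6b and Serpinb9. Serpina3i is a member only through its GalN/LPS counts, so its negative term is tied to the choice of genes.

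Serpina6 had the largest positive term, 1.95 ± 0.46 (adjusted p = 0.00629), with 0.85 in injured and -1.11 in uninjured livers. Serpina11 followed at 1.33 ± 0.19 (adjusted p = 0.000393), with 0.67 in injured and -0.66 in uninjured livers. Serpinf2, Serpinc1, Serpinf1 and Serping1 had terms of 1.08, 1.07, 1.06 and 1.05, and with totals 0.51, 0.50, 0.496 and 0.48. Serpina3f had a term of -2.87 ± 0.55 (adjusted p = 0.00221) and Serpina3g one of -1.54 ± 0.29 (adjusted p = 0.00184), where the uninjured livers held little of either message.

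Serpina3n and Serpina3m did not pass the interaction test, at 0.51 ± 0.55 (adjusted p = 0.486) and 0.46 ± 0.41 (adjusted p = 0.392). Their differences were 2.42 and 2.09 in injured and 1.92 and 1.63 in uninjured livers. An SE of that size does not show that they are alike. Serpinh1, at -1.34 ± 0.62 (adjusted p = 0.105), did not pass, and passed with library totals at -1.91 (adjusted p = 0.0447).

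Against saline livers 24 of the 31 serpins were higher in pretreated livers and 1, Serpina9, was lower, with 34.8% and 30.2% of all genes called higher and lower. The median was 1.08 over the serpins and 0.14 over all genes. With library totals 16 serpins were higher and 5 lower, the median of all genes was -0.54, and genes called higher were 19.8% of those called, against 53.5% with TMM. With totals 1683 of 14280 genes were called higher and 6803 lower. With TMM, Serpina3f and Serpina3g were 25.5-fold and 17.1-fold higher than in saline livers, log2 differences of 4.67 and 4.10. With totals these log2 differences were 4.03 and 3.44. Serpina6, Serpina10, Serpina11, Serpinh1, Serpina12 and Serpinb8 did not pass in this comparison, with log2 differences from -0.89 for Serpinb8 to 0.85 for Serpina12. With totals 4 of these were called lower: Serpina10 (-1.11), Serpina6 (-0.74), Serpina11 (-0.45) and Serpinb8 (-1.57). Serpina9 fell by 1.15 ± 0.38 (adjusted p = 0.0149), with an adjusted p of 0.0539 without saline replicate 2 and 0.0503 without saline replicate 3. Serpina1c in this comparison had an adjusted p of 0.0535 without saline replicate 3.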

How the data were processed

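Liver RNA was sequenced from 13 samples, with libraries made with the NEBNext Ultra kit per the labels' protocols. The authors deposited whole read counts per Ensembl gene, with no normalization, and FPKM for the same libraries. Alignment used HISAT2 to GRCm38 (mm10), per the submitters' processing notes. No source used here names the read counter, its annotation or its strand setting. Columns named ALF were taken as GalN/LPS, since ALF stands where the titles have that model. The series text speaks of AILI mice where the labels, followed here, give GalN with LPS.

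The counts of the 13 libraries entered 1 fit (edgeR 4.0.16, R 4.3.3) with TMM factors, a filter on low counts by group and no term but the group. Its two-sided quasi-likelihood F test was adjusted by Benjamini-Hochberg over 14280 genes at 0.05. The common dispersion was 0.039. SEs were taken from the fold change and the F statistic. CPM are TMM-scaled. The fit was tested on simulated counts. Alternatives were library totals, RLE factors, DESeq2 1.42.0, no filter on low counts, limma 3.58.1 on log2(FPKM + 0.1) and log2(FPKM + 1), a replicate block, and each replicate left out. Replicates differed beyond sampling noise. Deviations of samples with the same replicate number correlated between -0.315 and 0.0873, which cannot show whether the numbers pair them. The main fit did not pair them.

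One member is counted in the totals and not reported here. The other members are accounted for, and those named with values are called in a comparison with a mean of at least 1 CPM in a group or are among the 10 most abundant by FPKM in saline livers. Serpina12, which meets neither rule, is given by its range. Of each list up to 3 genes per comparison are named, by adjusted p. The members and lists were chosen with earlier results of these data known. Sequences are from RefSeq (GRCm38.p6) and GENCODE M21 transcripts, matched with Biopython 1.88, and 50-base words were compared across all transcripts.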

Additional observations from a re-analysis of the deposited data

Results flagged for a closer look

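For 16 genes the effect of dmPGE2 differed between injured and uninjured livers, by the interaction test of edgeR. The log2 term was positive for Serpina6 (1.95), Serpina11 (1.33), Serpinf2 (1.08), Serpinc1 (1.07), Serpinf1 (1.06), Serping1 (1.05), Serpina1a (0.86), Serpina1e (0.85) and Serpind1 (0.84). It was negative for Serpina3c (-3.11), Serpina3f (-2.87), Serpina3i (-2.44), Serpinb6a (-1.70), Serpinb6b (-1.68), Serpina3g (-1.54) and Serpinb9 (-0.81). The term of Serpina3i, a member only through its GalN/LPS counts, is not independent of the choice of genes. The term for Serpina3c was -1.50 (adjusted p = 0.0965) and that for Serpina3i -1.85 (adjusted p = 0.0934) without dmPGE2 replicate 2, and without saline replicate 3 they were -2.77 (adjusted p = 0.0584) and -2.12 (adjusted p = 0.052). With library totals the terms for Serpinf2, Serpinc1 and Serping1 were 0.51, 0.50 and 0.48, and the calls ended for Serpinf1 (0.496, adjusted p = 0.0538), Serpind1 (0.29, adjusted p = 0.286), Serpina1a (0.31, adjusted p = 0.175) and Serpina1e (0.29, adjusted p = 0.294). Leaving out any of several libraries ended the call for Serpina1a (4 of 13 libraries), Serpina1e (9 of 13) and Serpinb9 (10 of 13).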

How the results depend on the processing

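Of 78 calls on single serpins, DESeq2 and RLE factors kept 78 each, no filter on low counts 77, FPKM with a pseudocount of 0.1 and of 1 kept 74 and 75, and library totals 56. Library totals moved serpins higher in pretreated against GalN/LPS livers to 6, positive interactions to 5 and serpins lower in pretreated against saline livers to 5. They gave summed serpin levels log2 ratios of 0.18 in pretreated against GalN/LPS and 0.27 in pretreated against saline livers. They also turned the direction of uncalled values, among them Serpina1c in pretreated against GalN/LPS livers (-0.10), Serpina1e (-0.038), Serpina3m (-0.10) and Serpinf2 (-0.12) in GalN/LPS against saline livers, and the interactions of Serpina3m (-0.077) and Serpina3n (-0.039). With no filter on low counts Serpina3m was -0.039 and Serpinf2 -0.073 in GalN/LPS against saline livers, 4 serpins were higher and 2 lower in dmPGE2 against saline livers, and 3 were lower in pretreated against saline livers. DESeq2 called 3 higher and 2 lower in dmPGE2 against saline livers, and 2 lower in pretreated against saline livers. The cause was not tested.

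The replicate block, which pairs samples by number alone, left 68 of the 78 calls and 10 serpins higher in pretreated against GalN/LPS livers. Same-numbered samples correlated between -0.315 and 0.0873. With 1 replicate left out at a time, serpins higher in pretreated against GalN/LPS livers ranged from 9 to 17, those lower in GalN/LPS against saline livers from 2 to 5, negative interactions from 4 to 7 and those lower in pretreated against saline livers from 0 to 2. Uncalled values that crossed 0 included those of Serpina3m (-0.22 to 0.36), Serpinf2 (-0.087 to 0.17) and Serping1 (-0.18 to 0.068) in GalN/LPS against saline livers and of Serpina3c (-0.24 to 0.12) in pretreated against GalN/LPS livers. Depth limits Serpina3i and Serpina3c, with 6 and 13 counts in saline libraries.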

Other observations

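Serpina3h, an unprocessed copy that lies between Serpina3g and Serpina3i and is not counted as protein-coding, averaged 1.14 CPM in pretreated, 2.64 CPM in GalN/LPS and 0.140 CPM in saline livers. It rose by 4.14 ± 0.62 in GalN/LPS against saline livers (log2, adjusted p = 3.75e-05) and fell by 1.20 ± 0.46 in pretreated against GalN/LPS livers (adjusted p = 0.0374). It shares 9.11% of the 50-base words of Serpina3g and 9.21% of those of Serpina3i, so reads may be split between them. Serpina4-ps1 averaged 42.2 CPM in pretreated and 100.4 CPM in saline livers, a fall of 1.25 (log2, adjusted p = 0.0319). The saline libraries held 179, 54.5 and 67.1 CPM, and pretreated replicate 1, at 64.2 CPM, lay within that range. Serpina5, the protein C inhibitor, just under the minimum, averaged 0.289 CPM in pretreated, 0.817 CPM in GalN/LPS, 0.818 CPM in dmPGE2 and 0.160 CPM in saline livers, with an interaction term of -3.73 (adjusted p = 0.0166). That term rests on 128 counts in all, with 37 in dmPGE2 replicate 1 and 0 in pretreated replicate 4.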
